A study of Mus musculus with 4 samples.

Results

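The T-cell receptor signalling loci described here are 42 genes, from surface receptors and tyrosine kinases to the transcription factors at the end of the pathway, each taken with 50 kb of sequence on both sides. A TOP2B peak was assigned to a gene when its centre lay in that window, and 178 of 17754 peaks of a Santa Cruz antibody, 38 of 3564 of a Novus antibody and 18 of 994 Novus peaks common to both were found there. These 42 genes are part of the 22350 protein-coding genes on chromosomes 1 to 19 and X that served as the background.

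TOP2B, the beta form of type II topoisomerase, opens and reseals both strands of DNA and is the form used by cells that do not divide. Its binding was mapped by ChIPseq in thymocytes of C57BL/6 mice aged 4 to 6 weeks, freshly isolated as a whole suspension of the thymus, fixed with formaldehyde and made into libraries by ChIPmentation, in which the transposase Tn5 adds the adapters to chromatin on the beads. The mice were wild-type, and the sources name no treatment. Of the TOP2B libraries, 1 was made with an antibody from Santa Cruz and 1 with an antibody from Novus Biologicals. The TOP2A and IgG libraries of the series were not analysed here as samples. The antibody and the library cannot be told apart, and no replicate error and no test between samples could be had. The lists give positions only, so the read depth behind a peak is unknown.

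Signalling starts when the T-cell receptor and its CD3 chains meet a peptide on an MHC molecule and the kinase LCK phosphorylates them, after which ZAP70 binds and phosphorylates the adaptors LAT and SLP-76 (Lcp2). These gather phospholipase C gamma 1, VAV1 and the RAS exchange factors, and the signal runs through calcium to the NFAT factors, through protein kinase C theta, BCL10 and MALT1 to NF-kappa B, and through RAS to the MAP kinases. In the thymus, the strength of this signal decides whether a double-positive thymocyte dies or goes on to become a CD4+ or CD8+ cell.

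Inside a member gene or within 1 kb of one of its transcription starts there were 7 common peaks, and the sequences of 6 are shown because these are sites at the genes themselves that both antibodies called. The other one, at the start of Malt1, is described with that gene and its sequence is not shown. Each is the Novus call in mm9, written 5′ to 3′ on the strand of the gene, with the bases that the Santa Cruz call also covers in capitals.
Cd28 intron 1, chr1:60815191-60815385 (plus strand): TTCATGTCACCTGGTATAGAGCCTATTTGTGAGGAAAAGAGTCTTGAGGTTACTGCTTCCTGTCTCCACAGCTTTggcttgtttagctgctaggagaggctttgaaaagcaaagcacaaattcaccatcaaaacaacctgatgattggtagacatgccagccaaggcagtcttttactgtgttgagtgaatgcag
Icos start, chr1:61034484-61034678 (plus strand): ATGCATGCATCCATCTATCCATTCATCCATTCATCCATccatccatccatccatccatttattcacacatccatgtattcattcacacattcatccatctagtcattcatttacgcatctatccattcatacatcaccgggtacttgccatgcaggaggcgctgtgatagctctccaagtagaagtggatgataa
Ptprc intron 2, chr1:140033068-140033262 (minus strand): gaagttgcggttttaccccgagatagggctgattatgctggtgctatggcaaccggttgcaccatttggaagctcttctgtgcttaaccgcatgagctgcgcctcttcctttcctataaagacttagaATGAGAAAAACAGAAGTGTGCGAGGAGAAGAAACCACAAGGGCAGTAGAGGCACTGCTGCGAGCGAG
Txk intron 9, chr5:73102257-73102451 (minus strand): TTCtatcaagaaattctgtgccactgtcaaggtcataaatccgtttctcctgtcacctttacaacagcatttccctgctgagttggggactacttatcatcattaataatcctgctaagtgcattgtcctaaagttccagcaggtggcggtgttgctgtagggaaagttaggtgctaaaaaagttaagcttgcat
Rasgrp1 intron 2, chr2:117157420-117157614 (minus strand): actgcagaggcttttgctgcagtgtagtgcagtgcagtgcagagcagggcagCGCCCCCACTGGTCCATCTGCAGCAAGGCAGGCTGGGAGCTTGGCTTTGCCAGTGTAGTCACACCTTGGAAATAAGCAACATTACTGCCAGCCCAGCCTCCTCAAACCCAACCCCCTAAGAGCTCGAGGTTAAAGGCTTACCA
Ptpn22 start, chr3:103663819-103664013 (plus strand): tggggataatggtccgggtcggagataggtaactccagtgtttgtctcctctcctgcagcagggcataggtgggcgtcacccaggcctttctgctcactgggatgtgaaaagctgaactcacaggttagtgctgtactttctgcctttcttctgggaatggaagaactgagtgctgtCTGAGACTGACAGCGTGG

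Over the 18 common peaks, the calls of both antibodies shared a median of 96 bp, from 3 bp in Txk to 184 bp in one of the peaks downstream of Malt1. The Icos call was made of a tandem repeat over much of its length and held the letters ATCC 12 times. The part of a repeated sequence in that call was not tested. Among the 6 calls shown, the Txk call was the only one that held an exact match to the core of the motif of CTCF, the protein that marks insulators and loop anchors, outside the 3 bp shared by both antibodies.

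Most of the T-cell receptor signalling genes had TOP2B nearby in the larger list. With the Santa Cruz antibody, 41 of 42 members had at least 1 peak in their window (97.6%, exact Clopper-Pearson 95% interval from 87.4% to 99.9%, counting error only), whereas 67.6% of all protein-coding genes did. The exception was Bcl10, the adaptor that binds MALT1. With the Novus antibody, 26 of 42 members had a peak (61.9%, from 45.6% to 76.4%) against 27.6% of all genes. A common peak lay in the window of 14 members (33.3%, from 19.6% to 49.5%), against 9.25% of all genes. The median member had 4 Santa Cruz peaks in its window and the median protein-coding gene had 1. All 42 members had a peak of at least one antibody.

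Many of these peaks were in the genes themselves. A Santa Cruz peak lay inside 33 members (78.6%), with a background of 25.5%, a Novus peak inside 12 members (28.6%), with a background of 7.67%, and a common peak inside 5 members (11.9%, Cd28, Ptprc, Txk, Rasgrp1 and Ptpn22), with a background of 2.17%. A Santa Cruz peak lay within 1 kb of a start of 21 members (50%, from 34.2% to 65.8%), while 12.1% of all genes had one. The Novus list had a peak at a start of 5 members (11.9%, from 3.98% to 25.6%) and the interval includes its background of 5.11%. Common peaks were found at a start of 3 members (7.14%, from 1.5% to 19.5%), with a background of 1.27%.

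**Figure D1:**
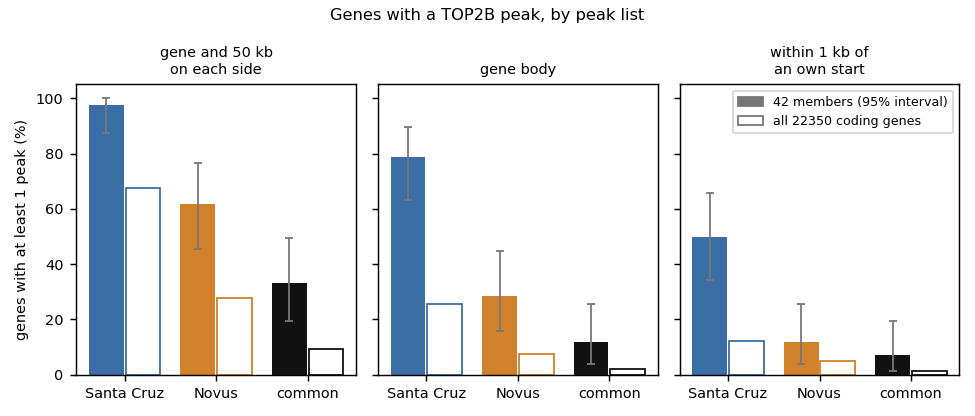
Percent of genes (y axis) with at least 1 TOP2B peak in the gene and 50 kb on each side, in the gene body or within 1 kb of an own transcription start, for the Santa Cruz list, the Novus list and the peaks common to both; filled bars are the 42 members with their exact 95% interval, open bars are all 22350 protein-coding genes. The filled bar is higher than the open bar in all 9 pairs, and only for the Novus list at the starts does the interval of the members reach down to the open bar.

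The members are longer than most genes, with a median body of 50.6 kb (from 5.71 to 295 kb) against 15.4 kb for all protein-coding genes, and long genes have more room for peaks. When each member was given the share of genes with a peak in its own length class (under 20 kb, 20 to 50 kb, 50 to 100 kb or over 100 kb), 31.5 members would have had a Santa Cruz peak in the window, 17.4 in the body and 6.43 at a start, as compared with the 41, 33 and 21 found. The same sums for the Novus list were 13.6, 5.46 and 2.88, against 26, 12 and 5 found, and for the common peaks 4.73, 1.58 and 0.726, against 14, 5 and 3 found. For common peaks at starts, the genes over 20 kb had shares of 1.91% to 1.93% by class, and shorter genes 0.767%. The members' interval for common start peaks, 1.5% to 19.5%, includes the shares of the longer classes. In each of the length classes over 20 kb, with 13, 13 and 9 members, all members had a Santa Cruz peak in their window. Of all genes in these classes, 75.3%, 78.3% and 81.7% had one. Under 20 kb, 6 of 7 members and 59.9% of genes had one. Single classes of the other lists were not always above all genes. For example, 0 of 9 members over 100 kb had a Novus peak at a start, against 7.46% of genes. In bodies of 20 to 50 kb, 1 of 13 members had a Novus peak, against 8.43%.

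To compare the loci with the rest of their chromosomes, each list was moved as a whole around the chromosome by 20 fixed distances, from 1 to 10 Mb in both directions, and counted again in the same 40 merged windows, which cover 6.95 Mb. The 178 Santa Cruz peaks were 3.27 times the mean of the moved lists, which was 54.5 with a range of 31 to 86. The 38 Novus peaks were 3.15 times their mean of 12.1 (range 4 to 21), and the 18 common peaks were 5.14 times their mean of 3.5 (range 1 to 8). The observed number was higher than in each of the 20 moves for the 3 sets. With moves of 100 kb to 1 Mb, which stay in the neighbourhood of the genes, the means rose to 86.3, 17.5 and 5.1, and the observed numbers were 2.06, 2.18 and 3.53 times as high. Each window is longer than 100 kb, so the shortest of these moves can leave peaks of the members inside their own windows. Santa Cruz counts were 134 and 129 for the moves of 100 kb, and 48 and 76 for those of 1 Mb. At the starts, the 21 members with a Santa Cruz peak compared with a mean of 1.3 members (range 0 to 4) for the moved peaks, the 5 with a Novus peak with 0.2 (range 0 to 2), and the 3 with a common peak with 0.05 (range 0 to 1). The moves take peaks off the starts of genes in general, so this comparison cannot set the members apart from other genes. The length-class numbers given above, 6.43, 2.88 and 0.726 members, are the nearer comparison. These moves are a description of the lists and no chance test was made.

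**Figure D2:**
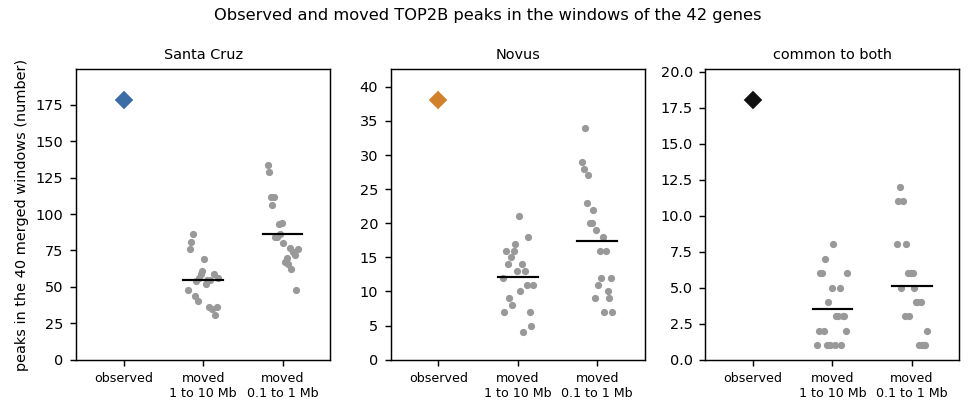
Number of TOP2B peaks (y axis, from 0) in the 40 merged windows of the 42 genes for the Santa Cruz, the Novus and the common peaks; the diamond is the observed number, each grey point is 1 of 20 fixed moves of the whole list by 1 to 10 Mb or by 0.1 to 1 Mb, and the bar is their mean. The diamonds stand at 178, 38 and 18, above the highest grey points of 134, 34 and 12.

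Taken locus by locus, 39 of 42 members had more Santa Cruz peaks than the mean of the 20 longer moves at their own window, and 11 had more than the highest of them. The Santa Cruz means ran from 0.55 at Txk to 5.1 at Skap1. Of all protein-coding genes, 43.1% had at least 2 and 25.6% at least 3 Santa Cruz peaks in the window. How many of all genes exceed their own moves was not counted for either list. Zap70 had 6 Santa Cruz peaks where the moves gave 0 to 3, Lat had 6 where they gave 0 to 3, and Nfatc3 had 10 where they also gave 0 to 3. For the Novus list, 25 members were above the mean of their moves and 3 (Zap70, Prkcq and Malt1) were above the highest. Except at Skap1 (1.15), these Novus means were below 1, so 1 peak was enough to exceed them. Zap70 had 1 Novus peak where the moves gave 0, and Prkcq and Malt1 had 3 where they gave 0 to 2. Per Mb, the members had 28.1 Santa Cruz peaks in the 50 kb before the gene, 26.5 in the body and 22.4 in the 50 kb after it. Over all protein-coding genes these densities were 12.2, 9.53 and 12.2. Novus peaks were at 7.14, 4.59 and 4.76 per Mb at the members and at 2.77, 1.97 and 2.62 over all genes. Hence the higher density was present in the 3 zones and in both lists.

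**Figure D3:**
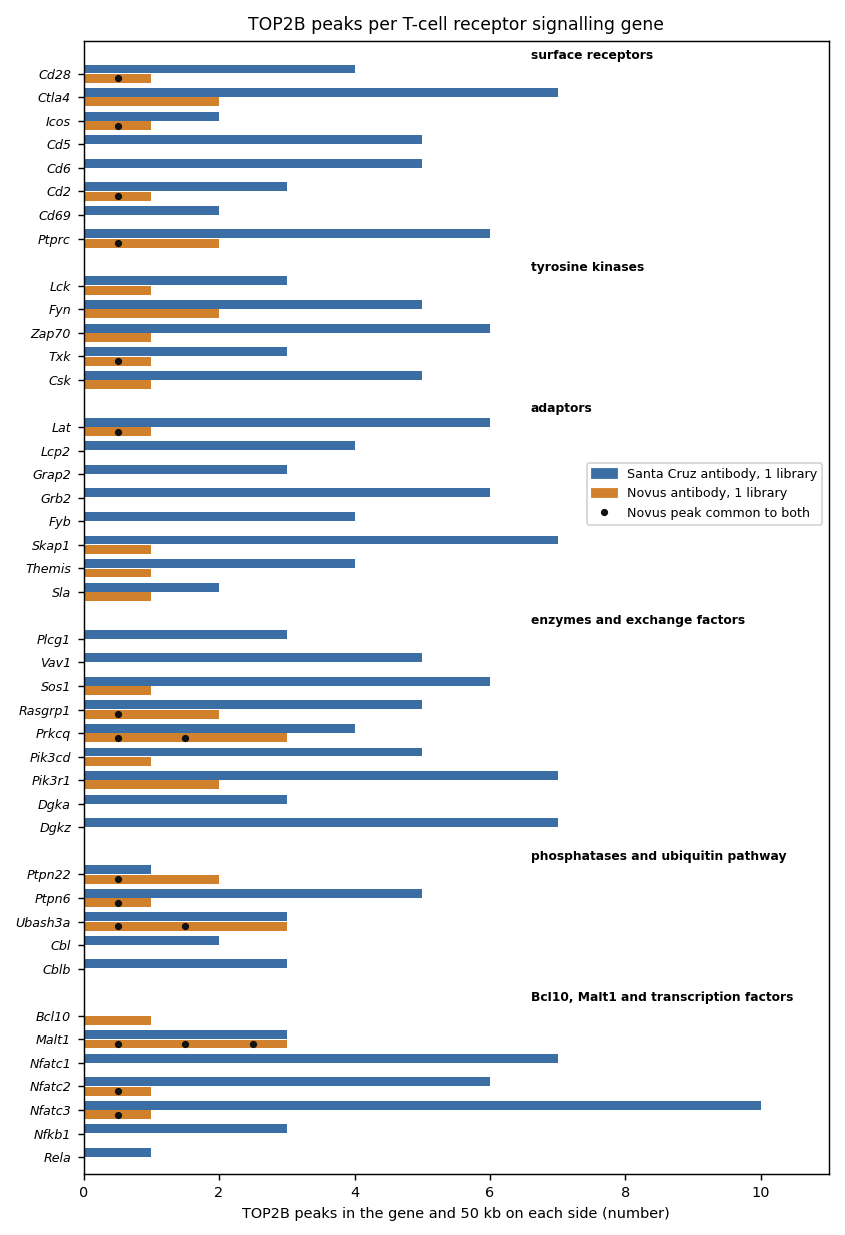
Number of TOP2B peaks (x axis) in the gene body and 50 kb on each side of the 42 members, grouped by role in T-cell receptor signalling; blue bars are Santa Cruz peaks, orange bars are Novus peaks (1 library each), and each black point marks 1 Novus peak that is common to both. Nfatc3 has the most Santa Cruz peaks (10), Bcl10 has none, and Malt1 has 3 common peaks.

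Among the surface receptors, the 8 members held 31 Santa Cruz, 7 Novus and 4 common peaks. Of these 8 genes, 4 had a Santa Cruz peak at a start, where 12.1% of all protein-coding genes had one. Cd28, which gives the main costimulatory signal, had a Santa Cruz peak 229 bp inside its start (chr1:60803338-60803524) and a common peak in intron 1, at 12.1 kb from the start, whose sequence is given above. Icos, a costimulatory receptor of the same family, had its common peak at the start itself, with the Novus call centred 190 bp and the Santa Cruz call 343 bp before it (chr1:61034335-61034521). Ctla4, the inhibitory receptor between these genes on chromosome 1, had no peak at a start but 5 of its 7 Santa Cruz peaks in the 26 kb before the gene. Both of its Novus peaks were in the same stretch (chr1:60917390-60917584 and chr1:60939774-60939968), at 26.4 and 3.97 kb from the gene, and the first was 320 bp from the centre of the nearest Santa Cruz peak without sharing a base. The windows of Ctla4 and Icos overlap, and 1 Santa Cruz peak belongs to both.

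Ptprc, which encodes the phosphatase CD45 that keeps LCK ready for activation, had 6 Santa Cruz peaks. One was 177 bp inside a start, in untranslated exon sequence (chr1:140071606-140071792), and 3 were in the 26.9 kb before the gene, where the second Novus peak was found as well (chr1:140088223-140088417, 16.4 kb upstream). The common peak of Ptprc was in intron 2, at 38.7 kb from the nearest start. Cd2, an adhesion receptor, had its common peak just past the 3′ end, 0.922 kb from the gene (chr3:101078803-101078997). Cd6, a scavenger receptor that binds ALCAM, had a Santa Cruz peak 121 bp before a start (chr19:10904576-10904762) and 2 in intron 1. In contrast, its neighbour Cd5, an inhibitor of the receptor signal, had 5 Santa Cruz peaks in its window and none in the gene, 2 of which were at the starts of Vps37c and A430093F15Rik. Cd69, an early activation marker, had only 2 Santa Cruz peaks, both 37.9 kb or more from the gene. Cd5, Cd6 and Cd69 had no Novus peak.

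All 5 tyrosine kinases had both a Santa Cruz and a Novus peak in their window, with 22 Santa Cruz and 6 Novus peaks in all. A Santa Cruz peak was also inside each of the 5 genes. Of all protein-coding genes, 67.6% had a Santa Cruz and 27.6% a Novus peak in the window, and 25.5% a Santa Cruz peak in the body. Lck, the kinase that starts the signal, is transcribed from a pair of promoters some distance apart, and had peaks at both. At the inner start, the Novus peak (chr4:129235478-129235672) was centred 41 bp inside the transcript and a Santa Cruz peak (chr4:129235746-129235932) 204 bp before it. These calls were 264 bp apart from centre to centre and shared no base, and hence did not count as common. At the outer start, a Santa Cruz peak was found 452 bp inside the transcript (chr4:129250340-129250526) without a Novus peak. Zap70, the kinase recruited to the phosphorylated receptor, had a Santa Cruz peak 145 bp before a start (chr1:36818457-36818643), 5 more in its window and a Novus peak at 24.3 kb upstream (chr1:36794255-36794449).

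Only 3 calls covered the first base of an annotated protein-coding transcript of a member, and they are shown as the positions where a call and a start coincide. Each is written 5′ to 3′ on the strand of the gene in mm9, and the capitals begin at the annotated start.
Lck, Novus, chr4:129235478-129235672 (minus strand): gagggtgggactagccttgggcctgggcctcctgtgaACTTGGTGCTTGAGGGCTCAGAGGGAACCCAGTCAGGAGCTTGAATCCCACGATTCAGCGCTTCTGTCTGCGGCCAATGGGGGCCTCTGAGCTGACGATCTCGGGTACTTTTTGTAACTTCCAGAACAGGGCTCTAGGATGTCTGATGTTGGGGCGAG
Skap1, Santa Cruz, chr11:96325795-96325981 (plus strand): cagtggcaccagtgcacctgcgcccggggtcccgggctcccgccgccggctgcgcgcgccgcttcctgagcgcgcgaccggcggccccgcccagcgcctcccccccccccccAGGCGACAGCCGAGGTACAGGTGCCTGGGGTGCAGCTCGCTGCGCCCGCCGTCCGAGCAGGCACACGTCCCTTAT
Prkcq, Santa Cruz, chr2:11093562-11093748 (plus strand): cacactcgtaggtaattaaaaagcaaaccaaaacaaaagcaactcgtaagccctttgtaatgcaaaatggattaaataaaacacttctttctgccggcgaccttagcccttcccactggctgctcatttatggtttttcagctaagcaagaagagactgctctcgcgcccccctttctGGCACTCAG

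Fyn, the other SRC family kinase of thymocytes, had no peak within 1 kb of a start, although a Novus peak was 1783 bp inside one of its transcripts (chr10:39091295-39091489) and another was 11.7 kb upstream (chr10:39076840-39077034). Its 5 Santa Cruz peaks were all in introns 1, 3 and 4. Txk, a TEC family kinase, had the common peak in intron 9, and a further Santa Cruz peak in intron 1. In Csk, the kinase that holds LCK inactive, 2 Santa Cruz peaks were in introns and 1 was 1532 bp before the start, with the Novus peak at 24.3 kb upstream (chr9:57517693-57517887). Thus the kinases had peaks of both antibodies, but Txk was the only one of the 5 where the calls overlapped.

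The 8 adaptors held 36 Santa Cruz and 4 Novus peaks, from lists of 17754 and 3564 peaks. No adaptor had a Novus peak at a start. Of all protein-coding genes 5.11% had one, so none among 8 genes is near that share. Lat, the membrane scaffold phosphorylated by ZAP70, is the shortest member (5.71 kb) and had 6 Santa Cruz peaks in its window, of which one was 213 bp inside its start (chr7:133512751-133512937). Its common peak was 40 kb downstream (chr7:133467252-133467446). Skap1, which takes part in integrin activation, is the longest member (295 kb), and had a Santa Cruz peak whose centre was 19 bp from a start (shown above) and 6 more in its window, together with a Novus peak in intron 3 (chr11:96397576-96397770). Grb2, the adaptor that carries SOS to the membrane, had a Santa Cruz peak 200 bp inside a start (chr11:115569592-115569778), with the highest GC content of all member peaks at 82.4%, and no Novus peak in its window. Themis, which is needed for positive selection, had 3 Santa Cruz peaks and a Novus peak (chr10:28409566-28409760) in intron 1, between 9.18 and 21.2 kb from the start. Sla, which promotes loss of the receptor from the surface, had its Novus peak in an exon of a shorter transcript, 12.3 kb from a start (chr15:66620743-66620937). Sla overlaps Tg, and this Novus call cannot be assigned to one of these genes. Its Santa Cruz peaks lay outside Sla, 2.21 kb downstream within Tg and 33.8 kb upstream between genes. Lcp2, Grap2 and Fyb had 4, 3 and 4 Santa Cruz peaks, none at an own start, and no Novus peak.

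Enzymes and exchange factors, the group with most genes, also held the most peaks, 45 of Santa Cruz and 9 of Novus over 9 genes. Of these genes, 6 had a Santa Cruz peak at a start, where 12.1% of all protein-coding genes had one. Rasgrp1, the diacylglycerol-dependent RAS exchange factor of T cells, had 4 Santa Cruz peaks within the gene, of which one was 687 bp inside a start (chr2:117167665-117167851) and one was the common peak of intron 2, at 10.9 kb from the start. Its second Novus peak was at the start of the neighbouring gene Fam98b (chr2:117075477-117075671). Prkcq, which encodes protein kinase C theta, had 3 Novus peaks, the largest number reached by any member, together with Ubash3a and Malt1. Of these, 2 were common, at 12.4 kb upstream (chr2:11081246-11081440) and 30.4 kb downstream (chr2:11253116-11253310), and the other one was in intron 1 (chr2:11108892-11109086). The Santa Cruz call centred 85 bp before the start of Prkcq is shown above.

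Both subunit genes of the PI3 kinase that acts in lymphocytes had peaks of both antibodies, without overlap. Pik3cd, the catalytic subunit p110 delta, had a Santa Cruz peak 115 bp before a start (chr4:149072839-149073025) and a Novus peak 8.2 kb upstream (chr4:149084783-149084977). Pik3r1, the regulatory subunit p85 alpha, had 7 Santa Cruz peaks, 5 of them in the gene, and none at a start, whereas the Novus list had one 239 bp inside a start (chr13:102537836-102538030) and one in intron 2 (chr13:102489811-102490005). It was thus the only member with a Novus and no Santa Cruz peak at a start. The second Novus peak was 475 bp from the centre of a Santa Cruz peak. Vav1, an exchange factor for RAC, had a Santa Cruz peak 514 bp inside a start (chr17:57418971-57419157), and Plcg1, the phospholipase that makes the second messengers, had 3 Santa Cruz peaks in the gene. One was 855 bp inside a start (chr2:160558231-160558417) and one 904 bp inside the start of a short transcript near the 3′ end (chr2:160586665-160586851). Sos1, the general RAS exchange factor, had a peak 960 bp inside its start (chr17:80878740-80878926), close to the limit of 1 kb, and a Novus peak 2 kb past its 3′ end (chr17:80790992-80791186).

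The diacylglycerol kinases, which end the signal of diacylglycerol, differed in the place of their peaks. Dgkz had 7 Santa Cruz peaks, 3 of which were in the gene. Of those, 2 (chr2:91784818-91785004 and chr2:91786446-91786632) were within 1 kb of a start of Gm9821, a gene model inside it, and 1 was in intron 1 (chr2:91797104-91797290). Dgka had 3 Santa Cruz peaks, all in its downstream flank, at the starts of Rab5b and Cdk2 and in Pmel. Neither had a Novus peak.

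The phosphatases and the ubiquitin pathway, which limit the signal, held 14 Santa Cruz and 6 Novus peaks over 5 genes, and 4 of the 6 Novus peaks were common. Over the whole Novus list, 27.9% of the peaks were common. Ptpn22, a phosphatase that acts on LCK and ZAP70, had 1 Santa Cruz peak in its whole window, 114 bp before the protein-coding start (chr3:103663996-103664182), and it overlapped the Novus peak centred 287 bp before that start. A further Novus peak was at the start of Rsbn1 (chr3:103718912-103719106). Ubash3a, a suppressor of the receptor signal, had a common peak on each side of the gene, 20.2 kb upstream within Tmprss3 (chr17:31324487-31324681) and 24.2 kb downstream within Rsph1 (chr17:31403242-31403436), and a further Novus peak 12.4 kb downstream (chr17:31391483-31391677). In Ptpn6, which encodes SHP-1, the common peak was 20.8 kb upstream (chr6:124709425-124709619). Cbl and Cblb, the ubiquitin ligases, had 2 and 3 Santa Cruz peaks and no Novus peak. The nearest Novus peak to a start of Cblb was 1295 kb away, the greatest such distance among the members.

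**Figure D4:**
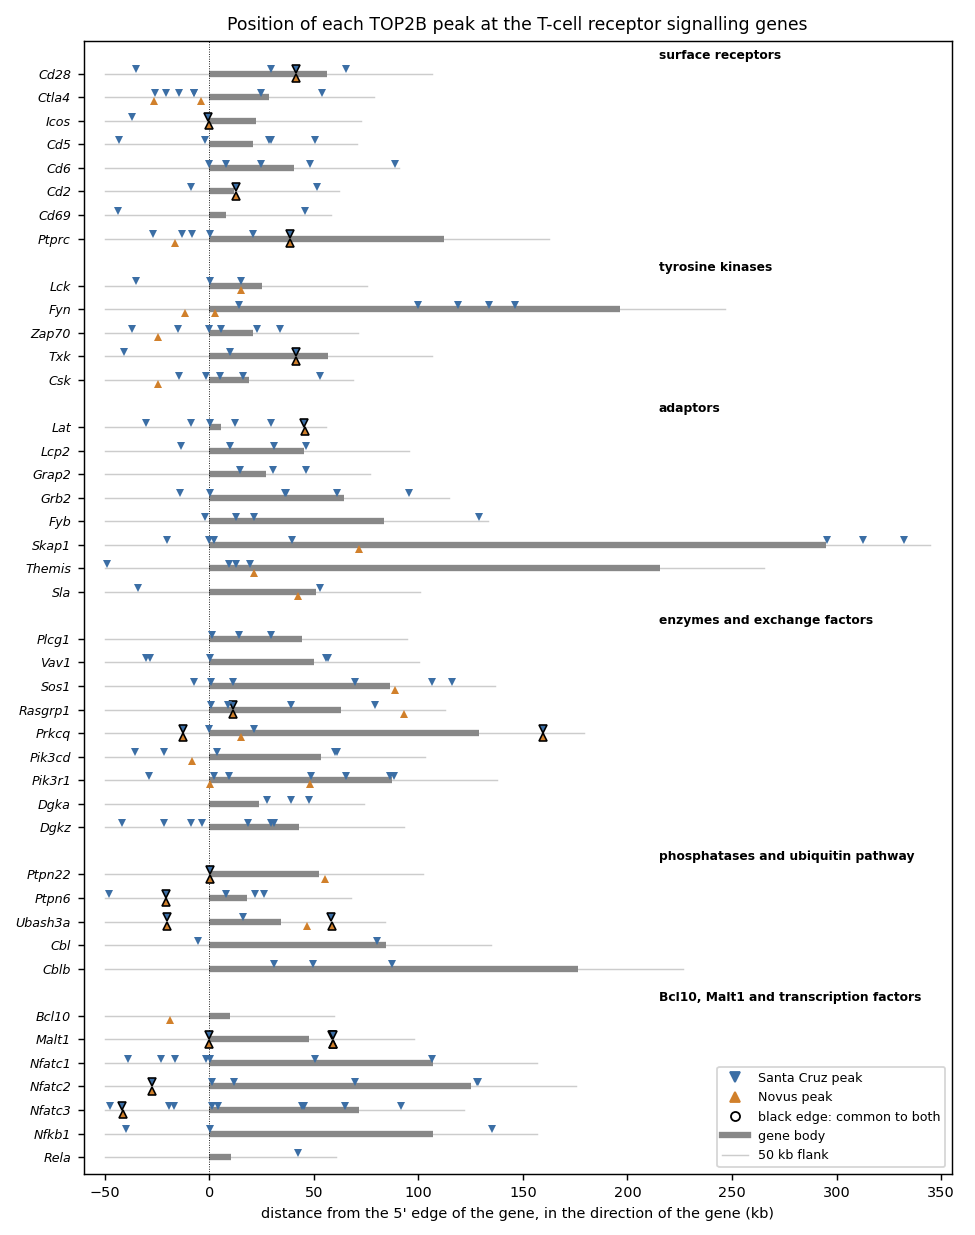
Position of each peak centre relative to the 5′ edge of the member gene (x axis, kb, in the direction of the gene), 1 row per member grouped by role; thick grey bars are gene bodies, thin lines the 50 kb flanks, blue triangles Santa Cruz peaks, orange triangles Novus peaks, and black edges mark calls common to both. Common calls lie at the 5′ edge of Icos, Ptpn22 and Malt1, inside Cd28, Ptprc, Txk and Rasgrp1, and in the flanks elsewhere.

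At the end of the pathway, the 7 genes of the BCL10 and MALT1 complex and of the transcription factors held 30 Santa Cruz and 6 Novus peaks, and 5 of these Novus peaks were common (27.9% over the whole Novus list). Malt1, the protease of the complex, lies on chromosome 18 and had 3 Santa Cruz and 3 Novus peaks, which all overlapped. One pair was at the start (Novus call chr18:65590353-65590547), with centres 167 bp (Novus) and 116 bp (Santa Cruz) before it, and the others were 11.2 kb (chr18:65649571-65649765) and 11.5 kb (chr18:65649858-65650052) past the 3′ end. It was the member with the most common peaks. By contrast, its partner Bcl10 had only a Novus peak, 18.8 kb upstream (chr3:145568466-145568660), and the nearest Santa Cruz peak to one of its starts was 63.3 kb away.

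The NFAT genes, which answer to calcium and calcineurin, each had a Santa Cruz peak inside the first 636 bp of a transcript. Nfatc1, also on chromosome 18, had 7 Santa Cruz peaks, with one 505 bp inside a start (chr18:80909212-80909398) and 4 upstream of the gene, and no Novus peak. Nfatc2 had 6, with one 636 bp inside a start (chr2:168414962-168415148), and a common peak 27.4 kb upstream (chr2:168454464-168454658). In Nfatc3, 10 Santa Cruz peaks were counted, as many as only 0.309% of protein-coding genes reached or passed. One of these was 521 bp inside a start (chr8:108584219-108584405), 4 others were further inside the gene, one of them in a coding exon, and the rest were in the flanks, with the common peak 41.4 kb upstream within Dus2l (chr8:108541223-108541417). Nfkb1, the p105 and p50 subunit of NF-kappa B, had a Santa Cruz peak 564 bp inside a start (chr3:135353853-135354039) and no Novus peak. Rela, the p65 subunit, had 1 Santa Cruz peak, at the start of Pcnxl3, 32 kb downstream of the gene.

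Besides Nfatc3, the members with most Santa Cruz peaks were Ctla4, Skap1, Pik3r1, Dgkz and Nfatc1, with 7 each, a number that 1.84% of all protein-coding genes reached. Of these, 3 (Ctla4, Skap1 and Pik3r1) also had a Novus peak, and none had a common one.

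Of the 178 Santa Cruz peaks, 23 (12.9%) were at an own start, 17 (9.55%) at the start of another protein-coding gene, 3 in exons and 53 (29.8%) in introns of the members, 27 (15.2%) in another gene and 55 (30.9%) between genes. The 38 Novus peaks fell in the same classes as 5, 2, 1, 9, 3 and 18, and the 18 common peaks as 3, 0, 0, 4, 3 and 8. Peaks at any protein-coding start made up 22.5% of the Santa Cruz peaks at the members (95% interval 16.6% to 29.3%) and 17.9% of those in the windows of all protein-coding genes. For Novus these shares were 18.4% (7.74% to 34.3%) and 32.6%, and for the common peaks 16.7% (3.58% to 41.4%) and 29.3%. Novus peaks between genes made up 47.4% (31% to 64.2%) at the members and 30.1% over all windows. At the starts, the background lies inside the interval of the members for the Santa Cruz, the Novus and the common peaks alike. The Novus share between genes had an interval that starts just above its background.

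Calls of both antibodies overlapped at nearly as many Novus peaks as they did not. Of the 38 Novus peaks, 18 (47.4%, 95% interval 31% to 64.2%) overlapped a Santa Cruz call, and this share was 27.9% over the whole Novus list. Seen from the other list, 18 of 178 Santa Cruz peaks (10.1%, 6.1% to 15.5%) were common, against 5.65% of the whole Santa Cruz list. The density of Santa Cruz peaks was also higher here, at 25.6 per Mb against 6.73 over the chromosomes, and its part in the share of common peaks was not tested. The 20 Novus peaks of the members that were not common lay a median of 10.2 kb from the centre of the nearest Santa Cruz peak (from 0.264 to 82.1 kb), and 3 of them, at Lck, Ctla4 and Pik3r1, were within 1 kb. For the whole Novus list, that median was 20.4 kb and 14.2% were within 1 kb.

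Both antibodies marked 25 members, with overlapping calls at 14 and separate calls at 11 (Ctla4, Lck, Fyn, Zap70, Csk, Skap1, Themis, Sla, Sos1, Pik3cd and Pik3r1). Santa Cruz peaks alone were found at 16 members, among them Cd5, Lcp2, Plcg1, Vav1, Nfatc1 and Nfkb1. A start peak in both lists was found at 4 members (Icos, Lck, Ptpn22 and Malt1), and 20 members had none at a start in either. Of all protein-coding genes, 67.6% had a Santa Cruz, 27.6% a Novus and 9.25% a common peak in the window. At a start, 12.1% had a Santa Cruz and 5.11% a Novus peak. The shares of all genes with peaks of both lists, separate calls, Santa Cruz peaks alone or no start peak were not counted.

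The sequence of the peaks was described with GC content, with CpG observed over expected, and with 5 motifs searched on both strands of each call, beginning with the CTCF core, for which up to 1 mismatch was allowed. The other motifs were exact. For the ETS family of factors the letters were CCGGAAGT. The RUNX family was searched with TGTGGT, while for the GATA family the core AGATAA was taken. Sites of the TCF and LEF family were searched as CTTTGAT. The 23 own-start Santa Cruz peaks had a median GC content of 55.1% (from 34.8% to 82.4%) and a median CpG ratio of 0.288, as compared with 59.4% and 0.668 over the 2691 Santa Cruz peaks at protein-coding starts. Their median distance from the nearest start, 229 bp, was next to the 230 bp of that larger set. Away from starts, the Santa Cruz peaks of the members had a median GC content of 47.3% and those of the whole list 47.1%.

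The RUNX letters, the core bound by RUNX1 and RUNX3, were found in 37 of 138 Santa Cruz peaks of the members that were not at a start (26.8%, 95% interval 19.6% to 35%), and in 16.7% of all such Santa Cruz peaks. These 37 peaks were spread over 25 members, with 3 each at Cd2 and Prkcq as the highest number. The Novus peaks away from starts had the letters in 9 of 31 (29%, 14.2% to 48%), with 19.2% over the list, a share within the interval. At starts, the RUNX letters were in 2 of 40 Santa Cruz peaks, against 8.96% of all start peaks. A match of 6 letters is frequent by its length and is no evidence of a bound site. The GATA letters were found in 11.6% of the Santa Cruz peaks away from starts, with 9.43% over the list, and the ETS and TCF letters in 0.725% and 1.45%, with 0.279% and 2.9% over the list.

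The CTCF core was found in 24 of the 216 calls of both antibodies. Away from starts, it was in 10.1% of the Santa Cruz peaks of the members (9.66% over the list), 22.6% of the Novus peaks (20%) and 26.7% of the common peaks (32.8%), so the members were near the whole lists in this. Exact matches are printed because these are the calls where the sequence is clearest, 5′ to 3′ on the strand of the motif, for 9 of the 11 members that had one. Those of Malt1 and Nfatc1 are not shown.
Prkcq, chr2:11253305-11253316 (plus strand): CCACTAGAGGGC
Plcg1, chr2:160586689-160586700 (plus strand): CCAGCAGGGGGC
Nfatc2, chr2:168454495-168454506 (minus strand): CCACCAGGGGGC
Ptpn6, chr6:124667027-124667038 (plus strand): CCAGCAGAGGGC
Lat, chr7:133467441-133467452 (plus strand): CCAGCAGGTGGC
Csk, chr9:57477240-57477251 (plus strand): CCACCAGGGGGC
Zap70, chr1:36794347-36794358 (plus strand): CCAGCAGGGGGC
Bcl10, chr3:145568636-145568647 (minus strand): CCACCAGAGGGC
Txk, chr5:73102304-73102315 (minus strand): CCAGCAGGTGGC

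The matches at Lat, Prkcq and Nfatc2 were in calls of common peaks in their flanks, at 40 and 30.4 kb downstream and 27.4 kb upstream, respectively, and the match at Txk was in the common peak of intron 9. Those at Zap70 and Bcl10 were in Novus peaks upstream of the genes, and those at Plcg1, Ptpn6 and Csk in Santa Cruz peaks alone. The match of Malt1 was in one of the common peaks downstream of the gene, and that of Nfatc1 in a Santa Cruz peak upstream of the gene.

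A list of further genes of the pathway was counted in the same way, of which 58 are annotated. A Santa Cruz peak was in the window of 53 of them (91.4%), in the body of 36 and at a start of 19 (32.8%), among which were Cd3g and Cd4, a receptor chain and the coreceptor, and Stim1, the calcium sensor. A Novus peak was in the window of 30 (51.7%) and at a start of 4, namely Was, which drives actin assembly, Ptpn2, Ppp3r1, a subunit of calcineurin, and Rasa1, which inactivates RAS. A common peak was in the window of 10 (17.2%) and in the body of Was and Stim1. The windows are not all separate, and that of Tec takes in the common peak of Txk, already counted for a member. Neighbours such as Cd3e, Cd3d and Cd3g, or Cd8a and Cd8b1, have windows that overlap. The shares of this list were between those of the 42 members and the background in all 9 counts. Those of the Novus starts (4 genes, 6.9%), the common bodies (2 genes, 3.45%) and the common starts (1 gene, 1.72%) were near their backgrounds. Rhoh had 10 Santa Cruz and 3 Novus peaks in its window, of which 2 were common, as many Santa Cruz peaks as Nfatc3.

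Marker genes of the cell types of the thymus were counted as well. A Santa Cruz peak was at a start of 3 of 9 thymocyte genes (Cd3g, Cd4 and Rag2), and at none of 4 B cell, 3 annotated myeloid and 4 thymic epithelium genes, with the background at 12.1%. In the windows, Santa Cruz peaks were found at all 9 thymocyte genes, and also at 3 of the B cell, 2 of the myeloid and 2 of the epithelium genes, with the background at 67.6%. The Novus list had no peak at a start of any of them, and in the windows it had peaks at 5 thymocyte genes and at Cd79a and Epcam, markers of B cells and of epithelium. Common peaks were in the windows of Cd8b1 and Cd79a. With so few genes, these counts do not tell the cell types apart. A peak is not a measure of expression, and the presence of other cell types in the suspension was not measured.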

How the data were processed

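TOP2B binding was measured by ChIPseq in thymocytes, with 1 library per antibody. The authors made the libraries by ChIPmentation, aligned the reads to mm9 with Bowtie 1.2.0 (the labels also name HOMER and deepTools), called peaks with HOMER in factor style for each library and kept those at least 10-fold above IgG. Each deposited row is a position on a chromosome, and all peaks are 187 bp wide for Santa Cruz and 195 bp for Novus. The score column of the deposited lists holds 0 throughout, so peak strength was not used, and the depth behind a peak is unknown. The Santa Cruz list holds 1 repeated row, outside the member windows, which was kept.

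Peak centres were compared with the protein-coding genes of GENCODE M1 on NCBIM37 (mm9). A window was the gene with 50 kb on each side, an own start the start of a protein-coding transcript of the gene within 1 kb, and a common peak a Novus peak that overlaps a Santa Cruz call by 1 bp or more. Features were assigned in the order own start, start of another gene, exon, intron, another gene, between genes. The lists were moved around each chromosome by 20 fixed distances. With 1 library per antibody no test was made, and background shares over 22350 genes stand in its place. The 95% intervals (Clopper-Pearson, exact) reflect the counting of genes or peaks alone. All 42 members are accounted for; positions of the calls described are given for members with a Novus or common peak, with a start peak of either list, or with the most Santa Cruz peaks. Sequences are those of common calls in or at member genes, then of calls over a start and of exact CTCF core matches; none is shown from chromosome 18, which holds Malt1 and Nfatc1. The members and the gene lists were chosen with earlier results of these data known. Counting, overlap and motif functions were tested on simulated data with planted answers. Python 3.11.15, numpy 2.4.6, scipy 1.17.1, pysam 0.24.0 and matplotlib 3.10.9 were used. TOP2A and IgG were not analysed here.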

Additional observations from a re-analysis of the deposited data

How the results depend on the processing

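Of 50 alternative values, 35 stayed within the limits set for them (1.5 times for counts, the exact 95% interval for ratios and shares) and 15 moved outside. Wherever one of these values had a share of all genes or a moved list beside it, the members stayed above it, though not always by more than their counting error. With no flank, that is in the gene bodies, Novus peaks were found at 12 members and common peaks at 5, and 75 Santa Cruz, 13 Novus and 5 common peaks were counted in all. With a flank of 10 kb, common peaks were found at 8 members (4.09% of all genes), and 115, 20 and 8 peaks were counted. Within 500 bp of a start, 13 members had a Santa Cruz peak (9.45% of all genes), while the Novus and common numbers stayed at 5 and 3. The ratio to the moved peaks was 2.06 for Santa Cruz and 2.18 for Novus with moves of 100 kb to 1 Mb, and for Santa Cruz it was 3.81 against the rate over the whole sequence and 2.81 against the windows of all protein-coding genes. When at least 50% of both calls had to be shared, 5 of 42 members (11.9%) had a common peak, against 5.86% of all genes. The exact 95% interval for 5 of 42 members, 3.98% to 25.6%, includes that share. With both lists extended by 1 kb, 18 members had a common peak (12.8% of all genes). Without the 4 members whose windows overlap, 37 of 38 had a Santa Cruz peak. No paired analysis was possible because each antibody has 1 library and no result comes from a test between samples. Without replicates or read numbers, a missing peak in the Novus list cannot be told from one under its calling threshold.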
